A study of Mus musculus with 6 samples.

Results

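The NRF2 antioxidant response was described here through 10 genes: the transcription factor Nfe2l2 (the gene of NRF2), its inhibitor Keap1, and Nqo1, Gclc, Gclm, Hmox1, Txnrd1, Srxn1, Slc7a11 and G6pdx, which are widely used as NRF2 targets. The members were taken by symbol from a table of 24493 genes, all 10 were found, and all 10 passed the filter on low values (1 TPM or more in 2 or more libraries, which 11549 genes passed). RNA sequencing had been done on 6 libraries of mouse C57BL/6 KPCY cells, pancreatic tumour cells that carry a yellow fluorescent lineage label driven by a pancreas-directed Cre. Cells carried a short hairpin RNA to Pthlh, which encodes the secreted peptide PTHrP (hairpin 1, shPthlh1, 2 libraries, and hairpin 2, shPthlh2, 2 libraries), or a non-targeting hairpin (shNT, 2 libraries). All 3 groups were transduced, so the controls carry a hairpin as well, and no untransduced cells were analysed here. The study's design names 2 parental clones without assigning the libraries to them, so hairpin and clone cannot be told apart. The condition label describes cells sorted from tumours, whereas the protocols describe culture in DMEM, and the labels do not say how these fit together. Replicates are not described as separate cultures or mice, so each p-value reflects the scatter among 6 libraries, part of which may be technical.

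NRF2 is a transcription factor that is made constantly and destroyed constantly. KEAP1 holds it and presents it to a CUL3 ubiquitin ligase, and electrophiles or oxidants that modify cysteines of KEAP1 let NRF2 escape, enter the nucleus, pair with a small MAF protein and bind the antioxidant response element (ARE) of its targets. The pathway is therefore controlled mainly through NRF2 protein, which RNA sequencing does not measure. Its targets supply glutathione, thioredoxin and NADPH and detoxify quinones and haem, and in mouse pancreatic tumours the programme is known to lower reactive oxygen species.

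The promoters of 4 members are shown because they belong to genes that behaved differently in these libraries: G6pdx, which was higher with both hairpins, Nqo1, which was higher with hairpin 1, Gclm, which moved little, and Srxn1, which was not called with either hairpin. Each runs from 250 bases before to 50 bases after the gene's start in RefSeq (GRCm38.p6), 5′ to 3′ on the gene's own strand, with matches to the ARE core TGACNNNGC on either strand in capitals. The windows are chrX:74428831-74429130 (minus strand) for G6pdx, chr8:107403156-107403455 (minus strand) for Nqo1, chr3:122245307-122245606 (plus strand) for Gclm and chr2:152105274-152105573 (plus strand) for Srxn1.
G6pdx: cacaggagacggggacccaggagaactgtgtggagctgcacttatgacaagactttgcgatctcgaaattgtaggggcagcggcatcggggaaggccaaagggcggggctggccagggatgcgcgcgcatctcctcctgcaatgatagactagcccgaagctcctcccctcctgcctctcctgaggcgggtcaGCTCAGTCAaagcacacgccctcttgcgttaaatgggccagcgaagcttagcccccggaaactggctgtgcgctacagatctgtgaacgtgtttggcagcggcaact
Nqo1: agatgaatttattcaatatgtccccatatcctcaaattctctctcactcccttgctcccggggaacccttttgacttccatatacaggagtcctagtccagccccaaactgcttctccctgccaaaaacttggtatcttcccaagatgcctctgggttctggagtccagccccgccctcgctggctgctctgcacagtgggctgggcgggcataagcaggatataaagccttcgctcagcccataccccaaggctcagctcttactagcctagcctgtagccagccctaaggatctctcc
Gclm: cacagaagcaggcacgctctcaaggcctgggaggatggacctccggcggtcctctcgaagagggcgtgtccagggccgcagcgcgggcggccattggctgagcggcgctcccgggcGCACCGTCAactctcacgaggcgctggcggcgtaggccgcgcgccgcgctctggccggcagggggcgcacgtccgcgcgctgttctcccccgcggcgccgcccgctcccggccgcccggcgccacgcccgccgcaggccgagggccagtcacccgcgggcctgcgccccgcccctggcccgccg
Srxn1: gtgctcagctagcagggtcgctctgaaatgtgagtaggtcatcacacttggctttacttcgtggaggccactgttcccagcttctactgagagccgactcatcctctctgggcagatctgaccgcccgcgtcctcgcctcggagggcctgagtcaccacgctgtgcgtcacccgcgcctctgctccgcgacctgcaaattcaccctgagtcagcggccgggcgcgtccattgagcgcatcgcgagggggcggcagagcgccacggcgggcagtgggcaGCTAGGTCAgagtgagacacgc
The G6pdx match read TGACTGAGC on the opposite strand, 57 to 49 bases before the start, and the Gclm match read TGACGGTGC on the opposite strand, 134 to 126 bases before the start. In Srxn1 the match TGACCTAGC lay on the opposite strand 29 to 37 bases after the start, and the Nqo1 window held no match. RefSeq entries were found for 8 of the 10 members, and 5 of these 8 (62.5%) held the core in at least 1 window; the others with a match were Nfe2l2 (TGACTCCGC, on its own strand) and 1 of 3 windows of Txnrd1 (TGACAAAGC, on the opposite strand). The core was present in 12.4% of all 32851 windows and in 17% of the 8886 tested genes with an entry. None of the 5 matches overlapped the related AP-1 motif TGANTCA. Capitals mark only TGACNNNGC, and the Srxn1 window holds this AP-1 motif, as tgagtca, outside its match. A match describes letters in this window and not binding, and a window without a match says nothing about elements farther away.

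The depth of the libraries is unknown, because the deposited TPM (transcript abundance scaled for transcript length and to a fixed total) keep no trace of read number. The targeted gene Pthlh had 0 and 0.106 TPM with hairpin 1, 0.0423 and 0.263 TPM with hairpin 2, against 0.752 and 0.966 TPM with shNT, so every knockdown library lay below both shNT libraries, at levels under the filter. Keratin-rich epithelial identity was clear in all libraries, with summed TPM of 7 pancreatic epithelial markers of 4388 to 4456 with hairpin 1, 3759 to 3850 with hairpin 2 and 3991 to 4150 with shNT, although Epcam was below 1 TPM throughout. All 6 lymphoid, 6 fibroblast and 4 endothelial markers were below 1 TPM in every library. The summed level of 4 acinar markers, 2 of them listed at 0 throughout, was 13.9 TPM with hairpin 1, 11.84 to 11.98 TPM with hairpin 2 and 14.4 to 20.1 TPM with shNT. Most of this sum was 1 gene, Cela1 (10.8 to 19.5 TPM over the libraries). Of 5 erythroid markers, 4 were below 1 TPM throughout, and their sum was 1.07 to 2.31 TPM with hairpin 1, 1.31 to 1.58 TPM with hairpin 2 and 1.76 to 1.88 TPM with shNT. A single small-RNA entry, Mir6236, took 20.4% and 19.7% of TPM with hairpin 1, 23.4% and 21.4% with hairpin 2, against 34.1% and 24.3% with shNT. As TPM sums to a fixed total, a larger share for this entry leaves less for all other genes. The median difference from shNT over all tested genes was 0.11 (log2) with hairpin 1 and 0.09 with hairpin 2, and -0.060 and -0.034 once small-RNA entries were removed and TPM rescaled.

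On the TPM scale, which allows comparison between genes, the members spanned a wide range. Gclm was the highest in shNT cells at 122 ± 5.13 TPM (SD, n = 2) and Slc7a11 the lowest at 4.59 ± 0.0099 TPM. Between them in shNT cells came Nfe2l2, Txnrd1, Nqo1, G6pdx, Gclc, Keap1, Srxn1 and Hmox1. The adjacent levels of Gclc (30.5 ± 1.5 TPM) and Keap1 (30.3 ± 0.342 TPM), and of G6pdx (33.1 ± 3.5 TPM) and Gclc, differed by less than the spread between shNT libraries.

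**Figure D1:**
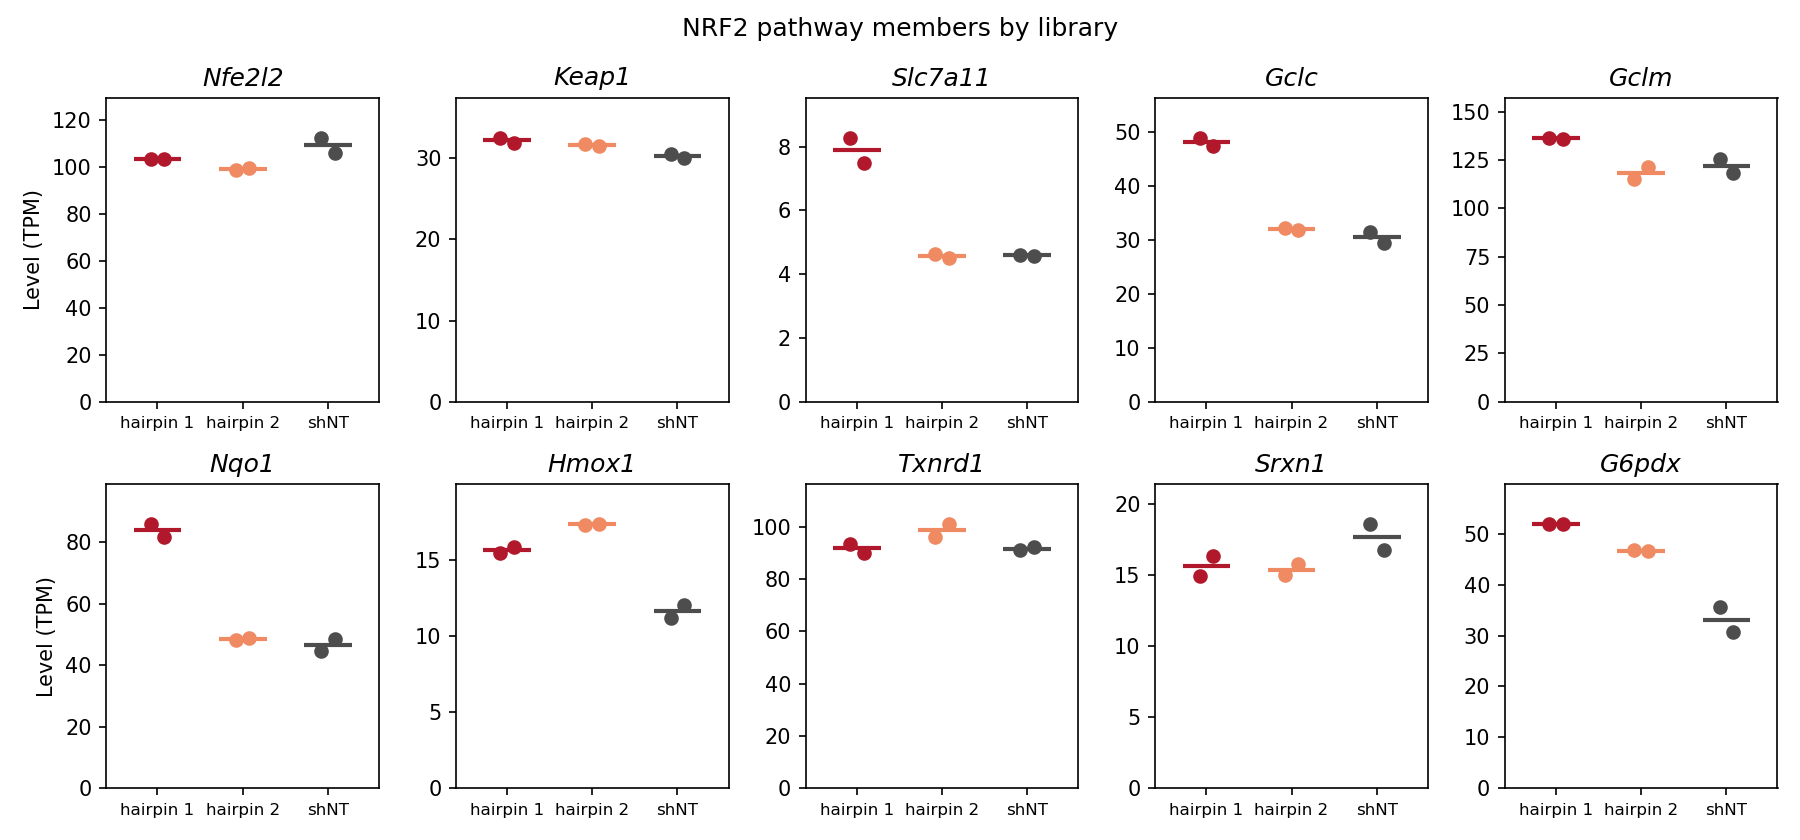
TPM of the 10 NRF2 genes in each library, with hairpin 1 on the left, hairpin 2 in the middle and shNT on the right; each point is 1 library and each bar a group mean. Nqo1, Gclc and Slc7a11 stand apart with hairpin 1, whereas G6pdx and Hmox1 are raised with both hairpins.

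With hairpin 1, 6 of the 10 genes rose relative to shNT and 0 fell (limma on log2(TPM + 1), Benjamini-Hochberg adjusted p below 0.05; 0 fell at an unadjusted p below 0.05). Of all tested genes, 50.2% were called with hairpin 1, 32.1% upward and 18.1% downward, so the number of members called is near the background in total. The median difference of the members was 0.28 (log2), against 0.11 over all tested genes. With hairpin 2, 2 of the 10 rose and 0 fell (2 were lower at an unadjusted p below 0.05), beside 9.63% of all tested genes called, 6.62% upward. The members' median difference was 0.06 with hairpin 2, against 0.09 over all genes. After median-ratio scaling, which moved the median of all genes to 0.02 with hairpin 1, the split of all genes was 2765 higher and 2683 lower with hairpin 1, in place of 3702 and 2096, and 232 higher and 543 lower with hairpin 2, in place of 765 and 347. The members moved with this scaling too. With hairpin 1, Gclm was no longer called (0.07, limma, adjusted p = 0.328). Nfe2l2 (-0.17, adjusted p = 0.0363) and Srxn1 (-0.25, adjusted p = 0.0492) were then called lower. Hmox1 (0.45, adjusted p = 0.0156) and G6pdx (0.39, adjusted p = 0.0491) kept their hairpin 2 calls. Both comparisons use the same 2 shNT libraries.

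**Figure D2:**
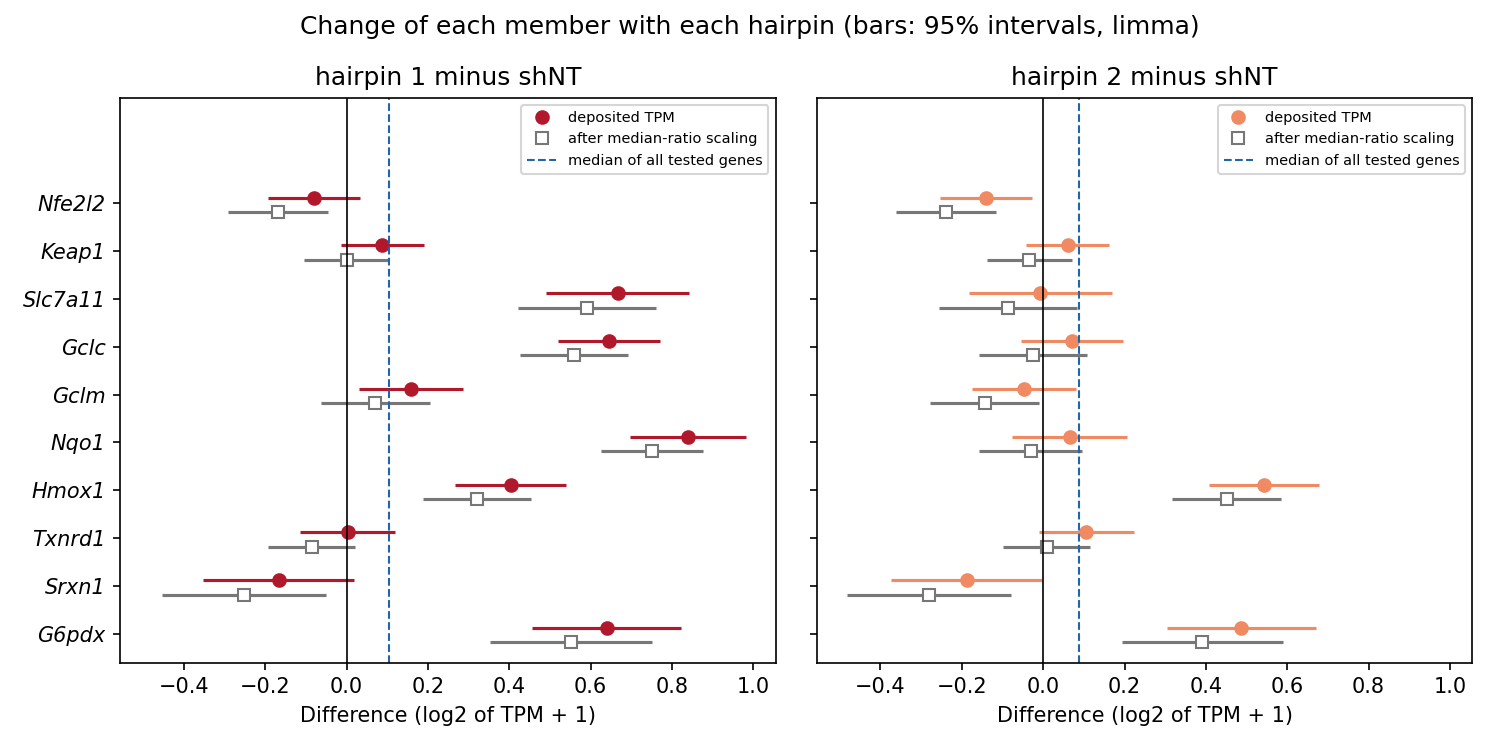
Difference from shNT of each NRF2 gene with hairpin 1 and with hairpin 2, in log2(TPM + 1), with 95% confidence intervals from limma; circles are deposited TPM, open squares the same after median-ratio scaling, and dashed lines the median over all tested genes. Nqo1 lies at 0.84 with hairpin 1 and 0.06 with hairpin 2, while Hmox1 lies at 0.40 and 0.54.

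The regulators themselves moved little. Nfe2l2 had 103 and 103 TPM with hairpin 1, 98.5 and 99.4 TPM with hairpin 2, against 112 and 106 TPM with shNT. All 4 knockdown libraries lay below both shNT libraries, but by a small margin. The differences were -0.08 ± 0.05 (log2, SE) with hairpin 1 (adjusted p = 0.191) and -0.14 ± 0.05 with hairpin 2 (adjusted p = 0.102). Keap1 had 32.6 and 31.9 TPM with hairpin 1, 31.7 and 31.5 TPM with hairpin 2, against 30.5 and 30.0 TPM with shNT. Every knockdown library was above both shNT libraries, with differences of 0.09 (adjusted p = 0.128) and 0.06 (adjusted p = 0.347). Within a library, the ratio of Nfe2l2 to Keap1 was 3.17 and 3.23 with hairpin 1, 3.10 and 3.16 with hairpin 2, and 3.68 and 3.53 with shNT. Both ratios of each hairpin lay below both of shNT. This ratio also carries chromosome-wide differences: the hairpin 1 median was -0.27 on chromosome 2 (Nfe2l2) and -0.13 on chromosome 9 (Keap1). Relative to their chromosome medians, Nfe2l2 and Keap1 differed by 0.20 and 0.22 with hairpin 1, and by -0.15 and 0.17 with hairpin 2. The cause of the lower ratio was not tested. A ratio within a library does not depend on the scaling of TPM. The calls do depend on it: after median-ratio scaling Nfe2l2 was lower with hairpin 1 (-0.17, adjusted p = 0.0363), and without shNT replicate 2 it was lower with hairpin 1 (-0.12, adjusted p = 0.0378) and with hairpin 2 (-0.18, adjusted p = 0.0239).

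The NAD(P)H quinone dehydrogenase Nqo1, a 2-electron reductase that keeps quinones from redox cycling and the usual readout of NRF2 activity, showed the largest rise of the 10 genes with hairpin 1 in deposited TPM. It had 86.0 and 81.9 TPM with hairpin 1, 48.3 and 49.0 TPM with hairpin 2, against 44.5 and 48.5 TPM with shNT. Both hairpin 1 libraries stood far above the other 4, and the hairpin 2 and shNT libraries overlapped. The group mean was 1.81 times that of shNT with hairpin 1 (0.84 ± 0.06, log2, adjusted p = 0.0003) and 1.05 times with hairpin 2 (0.06, adjusted p = 0.463). Relative to the median of all genes the hairpin 1 difference was 0.73. The direct comparison of hairpin 2 with hairpin 1 gave -0.77 (adjusted p = 0.0006).

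Glutathione synthesis is served by 3 members. Gclc, the catalytic subunit of glutamate-cysteine ligase and the rate-limiting step, had 49.0 and 47.5 TPM with hairpin 1, 32.2 and 31.9 TPM with hairpin 2, against 31.5 and 29.4 TPM with shNT. Hairpin 1 stood clear of the rest, while hairpin 2 was only just above shNT. The differences from shNT were 0.65 ± 0.05 (adjusted p = 0.0005) and 0.07 (adjusted p = 0.369), and hairpin 2 was 0.58 below hairpin 1 (-0.58, adjusted p = 0.0010). Slc7a11, the light chain of the cystine importer xCT that brings in the cysteine of glutathione, had 8.28 and 7.48 TPM with hairpin 1, 4.62 and 4.51 TPM with hairpin 2, against 4.60 and 4.58 TPM with shNT. It followed the same order, with both hairpin 1 libraries high and the other 4 within a narrow band. The hairpin 1 mean was 1.72 times that of shNT (0.67 ± 0.07 on the log2(TPM + 1) scale, which understates low genes, adjusted p = 0.0012), and the hairpin 2 difference was -0.01 (adjusted p = 0.961). Gclm, the modifier subunit that makes the ligase more efficient, had 137 and 136 TPM with hairpin 1, 115 and 121 TPM with hairpin 2, against 126 and 118 TPM with shNT. The hairpin 1 libraries were higher than all others by a small margin, and hairpin 2 overlapped shNT. Its rise with hairpin 1 (0.16 ± 0.05, adjusted p = 0.0475) was at the edge of the threshold: relative to the median of all genes it was 0.05, after median-ratio scaling 0.07 (adjusted p = 0.328), and the call was lost when any library other than shNT replicate 1 was left out.

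The 2 ligase subunits therefore changed unequally. The ratio of Gclc to Gclm within a library was 0.359 and 0.349 with hairpin 1, 0.280 and 0.263 with hairpin 2, and 0.251 and 0.248 with shNT. The 3 groups did not overlap in this ratio, which also carries chromosome-wide differences. Relative to their chromosome medians, Gclc and Gclm differed from shNT by 0.78 and 0.03 (log2) with hairpin 1, and by 0.18 and -0.11 with hairpin 2. The ratio of Nqo1 to its regulator Nfe2l2 was 0.833 and 0.794 with hairpin 1, 0.490 and 0.493 with hairpin 2, and 0.396 and 0.457 with shNT, again with no overlap. Relative to their chromosome medians, Nqo1 and Nfe2l2 differed from shNT by 0.69 and 0.20 (log2) with hairpin 1, and by -0.03 and -0.15 with hairpin 2.

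Hmox1, the inducible haem oxygenase that opens haem to biliverdin, carbon monoxide and iron, was higher with both hairpins. It had 15.5 and 15.9 TPM with hairpin 1, 17.3 and 17.4 TPM with hairpin 2, against 11.2 and 12.1 TPM with shNT. Hairpin 2 was highest and shNT lowest, without overlap. The means were 1.35 times shNT with hairpin 1 (0.40 ± 0.05, adjusted p = 0.0026) and 1.49 times with hairpin 2 (0.54 ± 0.05, adjusted p = 0.0125). Without the small-RNA entries the hairpin 1 difference was 0.24 (adjusted p = 0.0719). Without replicate 1 or replicate 2 of hairpin 2, the hairpin 2 difference stayed at 0.54 with adjusted p = 0.131 and 0.112. Hmox1 is also abundant in macrophages: of 8 myeloid markers, 6 were below 1 TPM in all libraries and Adgre1 and C1qa were listed at 0 throughout. The summed myeloid level was 76.5 to 78.7 TPM with hairpin 1, 61.9 to 62.5 TPM with hairpin 2 and 68.9 to 71.2 TPM with shNT, nearly all of it Cd14. In bulk samples, fewer cells of a type and less RNA per cell cannot be told apart.

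G6pdx, the X-linked glucose-6-phosphate dehydrogenase that makes the first NADPH of the pentose phosphate pathway, was the other gene raised with both hairpins. It had 52.0 and 52.0 TPM with hairpin 1, 46.8 and 46.6 TPM with hairpin 2, against 35.6 and 30.6 TPM with shNT. All 4 knockdown libraries were above both shNT libraries, which differed from each other more than the knockdown replicates did. The means were 1.57 times shNT with hairpin 1 (0.64 ± 0.07, adjusted p = 0.0016) and 1.41 times with hairpin 2 (0.49 ± 0.07, adjusted p = 0.0253). Its retrogene copy G6pd2 was listed at 0 in all 6 libraries. The hairpin 2 call was lost when any knockdown library was left out (adjusted p between 0.0742 and 0.159), when the gene was set against the median of its chromosome (0.38, adjusted p = 0.0677) and without the small-RNA entries (0.36, adjusted p = 0.137). Hairpin 2 minus hairpin 1 was -0.15 (95% confidence interval -0.34 to 0.03, adjusted p = 0.156).

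The thioredoxin members did not rise. Txnrd1, the cytosolic thioredoxin reductase, had 93.6 and 90.0 TPM with hairpin 1, 96.2 and 101 TPM with hairpin 2, against 91.0 and 92.2 TPM with shNT. The hairpin 1 and shNT libraries overlapped, and hairpin 2 lay slightly above both. Differences were 0.00 (adjusted p = 0.966) and 0.11 (adjusted p = 0.182). Srxn1, the sulfiredoxin that restores over-oxidised peroxiredoxins, had 14.9 and 16.3 TPM with hairpin 1, 15.0 and 15.8 TPM with hairpin 2, against 18.6 and 16.7 TPM with shNT. Both hairpins were below shNT without overlap, but the margin to shNT replicate 2 was small. The differences were -0.17 (adjusted p = 0.113) and -0.19 (adjusted p = 0.151). After median-ratio scaling Srxn1 passed the threshold with hairpin 1 (-0.25, adjusted p = 0.0492), and so it did without shNT replicate 2 (-0.24, adjusted p = 0.0468).

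Across both hairpins together (the mean of the hairpin means minus shNT), Nqo1, Gclc, Hmox1, Slc7a11 and G6pdx rose and 0 members fell (limma; 2 were lower at an unadjusted p below 0.05), beside 39.4% of all tested genes called, 27.3% upward. Of these 5, Hmox1 (0.47, adjusted p = 0.0022) and G6pdx (0.56, adjusted p = 0.0030) were also called with each hairpin. For Nqo1 (0.45, adjusted p = 0.0028), Gclc (0.36, adjusted p = 0.0036) and Slc7a11 (0.33, adjusted p = 0.0116) the average combined a rise with hairpin 1 and a difference of at most 0.07 with hairpin 2. Without the small-RNA entries, Gclc (0.21, adjusted p = 0.127) and Slc7a11 (0.20, adjusted p = 0.190) were not called over both hairpins. When the 4 knockdown libraries were treated as 1 group, which puts the gap between hairpins into the error term, limma called 0 members and 1 gene in all, with adjusted p = 0.0987 for G6pdx and 0.104 for Hmox1 and 2 members at an unadjusted p below 0.05. The hairpins were compared directly: hairpin 2 was lower than hairpin 1 for 4 members (Nqo1, Gclc, Slc7a11 and Gclm) and higher for 0 (1 at an unadjusted p below 0.05), beside 40.1% of all genes called, 20.2% downward and 19.9% upward. Of the 4, Gclm (-0.21, adjusted p = 0.0261) lost its call when any knockdown library was left out.

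Whole chromosomes differed between the hairpin 1 and shNT libraries, and members lie on them. The median difference of hairpin 1 from shNT was -0.27 (log2) over 912 genes of chromosome 2, which carries Nfe2l2 (chr2:75675513-75704641) and Srxn1 (chr2:152105516-152111376), and -0.13 over 644 genes of chromosome 9, which carries Keap1 (chr9:21229730-21239361) and Gclc (chr9:77754535-77794485). With hairpin 2 the medians were 0.01 on chromosome 2 and -0.10 on chromosome 9. Hairpin 1 medians were above 0 on the chromosomes of the other members: 0.15 on chromosome 8 (Nqo1, chr8:107388225-107403206, and Hmox1, chr8:75093621-75100589), 0.14 on chromosome 3 (Gclm, chr3:122245557-122270732, and Slc7a11, chr3:49892526-50443614), 0.20 on chromosome 10 (Txnrd1, chr10:82833951-82897712) and 0.21 on X (G6pdx, chrX:74409483-74429194). Relative to the median of its own chromosome, a setting chosen after seeing the data, Nfe2l2 differed by 0.20 with hairpin 1 (adjusted p = 0.0248), Keap1 by 0.22 (adjusted p = 0.00909), Srxn1 by 0.11 (adjusted p = 0.324) and Txnrd1 by -0.19 (adjusted p = 0.0193). On that scale Gclc (0.78) exceeded Nqo1 (0.69) with hairpin 1. With hairpin 2, Keap1 (0.17, adjusted p = 0.0847) and Gclc (0.18, adjusted p = 0.110) did not pass the threshold. When the offset of each chromosome was removed but the overall shift of all genes was kept, Nfe2l2 (0.29, adjusted p = 0.0055) and Keap1 (0.32, adjusted p = 0.00253) passed with hairpin 1, and Keap1 (0.25) and Gclc (0.26) with hairpin 2. The direction given for Nfe2l2 and Srxn1 with hairpin 1 turns round in both settings, and that for Txnrd1, which was near 0, becomes a fall relative to its chromosome. Coordinates are from GENCODE M21 on mm10, the build of the submitters' processing notes.

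**Figure D3:**
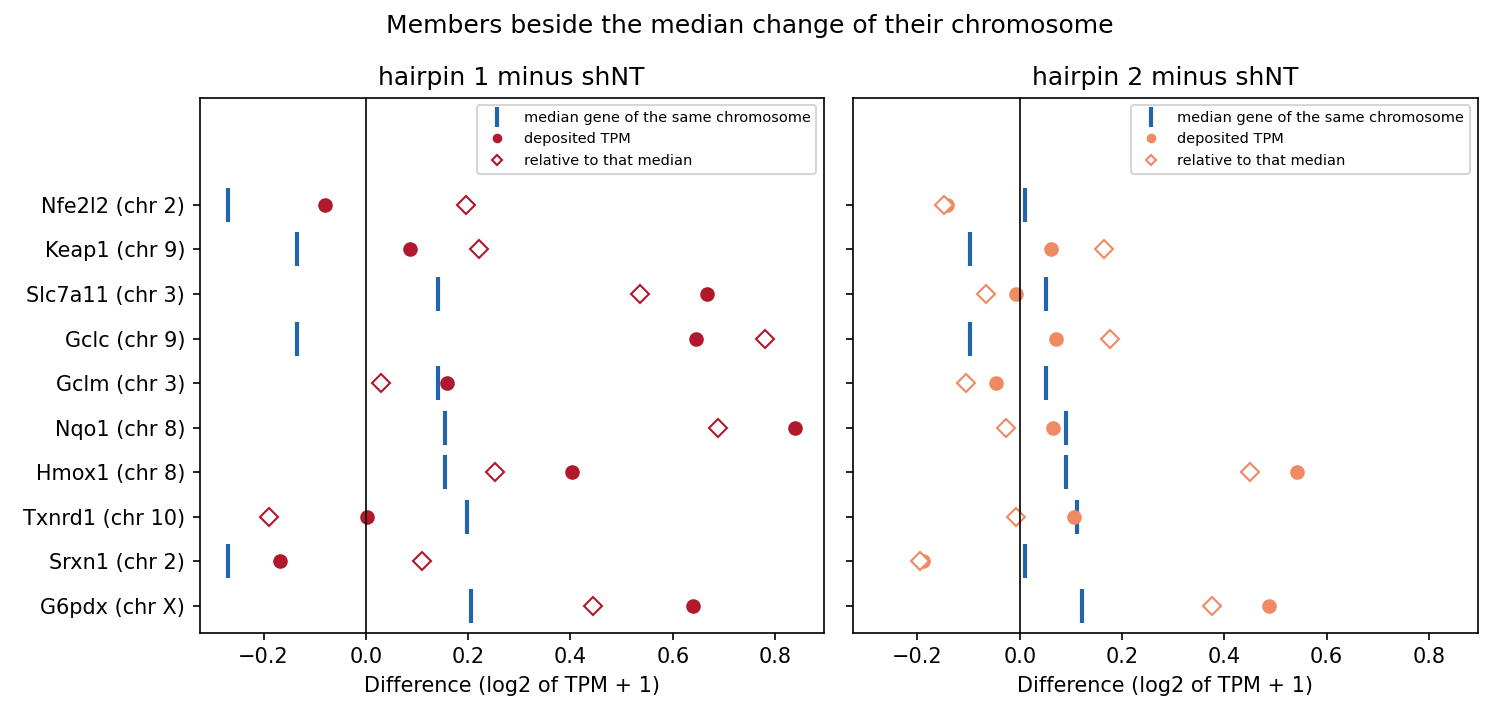
Difference from shNT of each NRF2 gene with hairpin 1 (left) and hairpin 2 (right), in log2(TPM + 1), from deposited TPM (circles) and relative to the median of its own chromosome (diamonds); vertical bars mark the median of the tested genes on the same chromosome. Chromosomes 2 and 9, which carry Nfe2l2, Srxn1, Keap1 and Gclc, have hairpin 1 medians of -0.27 and -0.13.

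The rest of the redox network was read from 79 further genes in 8 lists, of which 73 were tested. In all, 30 rose and 12 fell with hairpin 1 (57.5%, against 50.2% of all tested genes), and 9 rose and 2 fell with hairpin 2 (15.1%, against 9.63%). After median-ratio scaling the counts were 20 and 15 with hairpin 1 and 6 and 5 with hairpin 2. Leaving out hairpin 2 replicate 1 or replicate 2 left 0 of the 73 called with hairpin 2 (limma; 17 and 16 at an unadjusted p below 0.05), and leaving out shNT replicate 2 gave 24 higher and 5 lower. Hairpin 1 counts fell to 17 higher and 9 lower without hairpin 1 replicate 1 and to 15 higher and 10 lower without hairpin 1 replicate 2. The hairpin 2 calls of Ephx1, Sod3, Mafk, Cat, Idh2 and Txn2 were also lost without either hairpin 1 library.

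**Figure D4:**
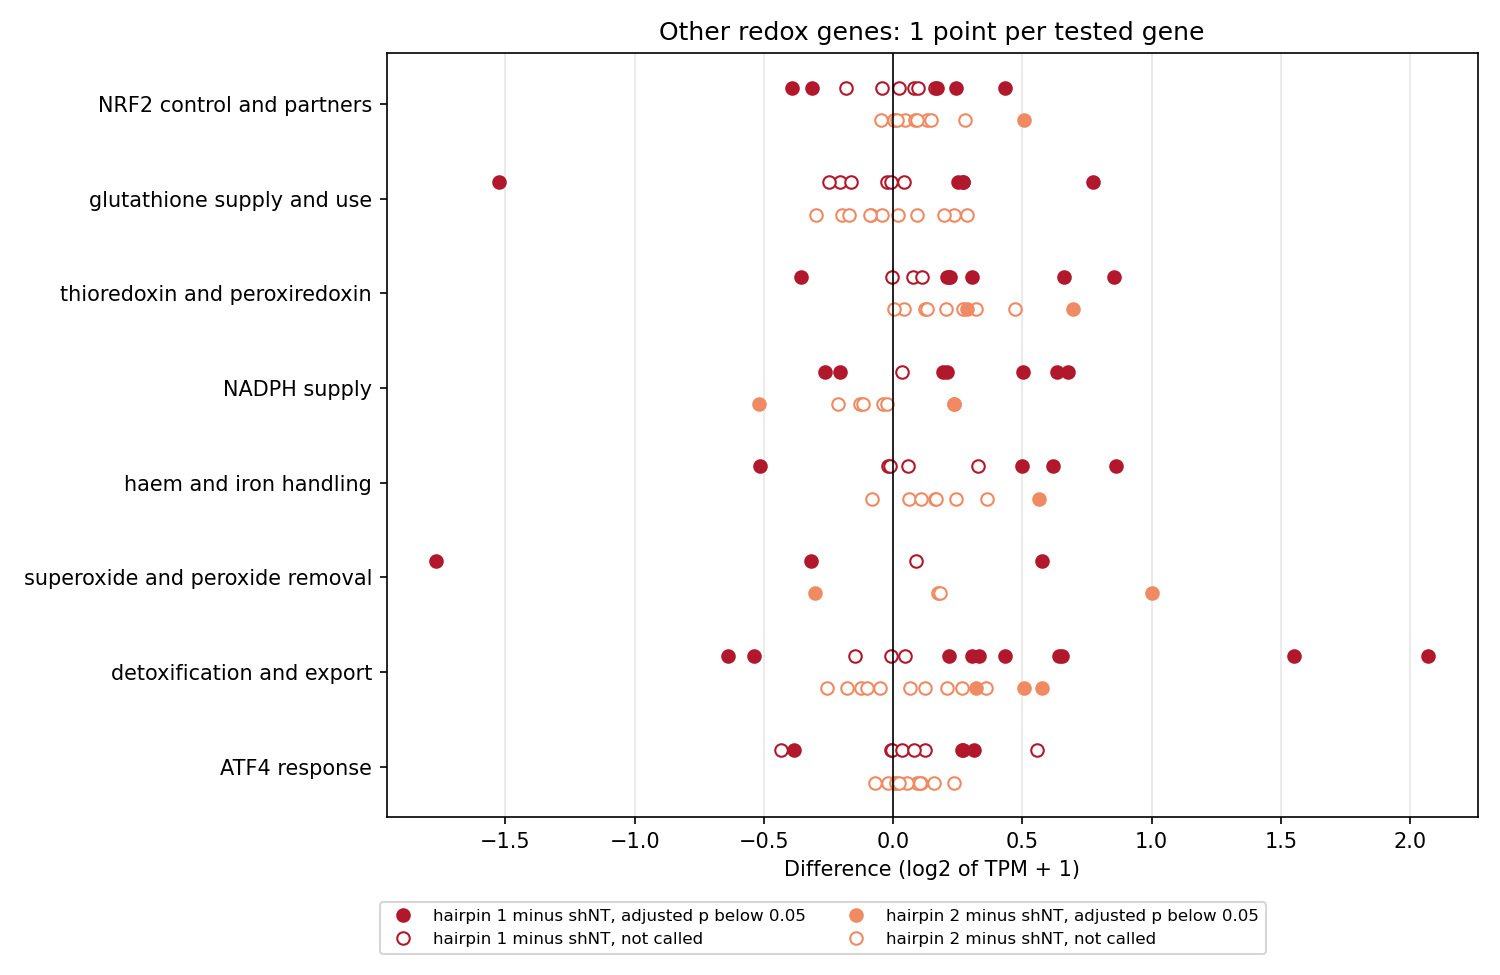
Difference from shNT of each tested gene of the 8 redox lists with hairpin 1 (upper points) and hairpin 2 (lower points), in log2(TPM + 1); filled points passed an adjusted p below 0.05. Aldh3a1 (2.07) and Ephx1 (1.55) lie farthest to the right and Sod3 (-1.77) and Gpx8 (-1.53) farthest to the left, all with hairpin 1.

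Detoxification and export, a list of phase I and II enzymes and export pumps, held the largest rises. With hairpin 1, 8 of 13 tested genes rose and 2 fell (median 0.31, against 0.11 over all genes), or 4 and 3 without the small-RNA entries (median 0.13). With hairpin 2, 3 rose and 0 fell (1 lower at an unadjusted p below 0.05, median 0.12, against 0.09). In deposited TPM, 32.1% of all tested genes rose and 18.1% fell with hairpin 1. With hairpin 2, 9.63% of all tested genes were called, 6.62% upward. Aldh3a1, an aldehyde dehydrogenase that clears lipid aldehydes, had 69.6 and 66.6 TPM with hairpin 1, 23.5 and 23.7 TPM with hairpin 2, against 16.1 and 14.8 TPM with shNT. Ephx1, the microsomal epoxide hydrolase, had 58.9 and 58.2 TPM with hairpin 1, 26.3 and 29.5 TPM with hairpin 2, against 18.98 and 19.70 TPM with shNT. Both genes were highest with hairpin 1, intermediate with hairpin 2 and lowest with shNT, without overlap. Aldh3a1 differed from shNT by 2.07 ± 0.06 with hairpin 1 (adjusted p = 3.2e-05) and by 0.58 ± 0.06 with hairpin 2 (adjusted p = 0.0118). For Ephx1 the differences were 1.55 ± 0.06 (adjusted p = 0.0001) and 0.50 ± 0.06 (adjusted p = 0.0203).

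NADPH supply, which feeds glutathione reductase and thioredoxin reductase, changed in both directions. With hairpin 1, 5 of 8 genes rose and 2 fell (median 0.20), beside 32.1% of all tested genes higher and 18.1% lower. With hairpin 2, 1 rose and 1 fell (median -0.08), beside 9.63% of all tested genes called, 6.62% upward. Pgls, the lactonase that acts just after G6pdx, had 150 and 153 TPM with hairpin 1, 94.6 and 94.6 TPM with hairpin 2, against 97.6 and 96.9 TPM with shNT. It was thus high with hairpin 1 alone among these libraries (0.64, adjusted p = 0.0003), unlike G6pdx. Taldo1, the transaldolase of the same pathway, differed from shNT by 0.67 with hairpin 1 (adjusted p = 0.0016) and 0.24 with hairpin 2 (adjusted p = 0.106). The 2 NADP-dependent isocitrate dehydrogenases went opposite ways: the mitochondrial Idh2 rose with hairpin 1 (0.50, adjusted p = 0.0011) and hairpin 2 (0.23, adjusted p = 0.0481, but 0.14, adjusted p = 0.136, after median-ratio scaling and 0.10, adjusted p = 0.557, without small-RNA entries), and the cytosolic Idh1 fell with hairpin 1 (-0.26, adjusted p = 0.0073) and hairpin 2 (-0.52, adjusted p = 0.0110). Between the hairpins, 7 of the 8 genes were lower with hairpin 2 than with hairpin 1 and 0 higher (limma; 0 at an unadjusted p below 0.05), beside 20.2% of all genes lower. The 7 became 5 without the filter or after quantile normalization, 2 without the small-RNA entries and 1 to 3 when any knockdown library was left out.

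Among genes of glutathione supply and use, 3 of 11 tested rose and 1 fell with hairpin 1 (median -0.01). With hairpin 2, 0 rose or fell (limma, 0 higher and 2 lower at an unadjusted p below 0.05, median -0.04). The shares of all tested genes were 32.1% higher and 18.1% lower with hairpin 1. They were 9.63% called, 6.62% upward, with hairpin 2. Chac2, which breaks glutathione down, rose with hairpin 1 (0.77, adjusted p = 0.0026). Gpx8, a glutathione peroxidase of the endoplasmic reticulum, had 0.548 and 0.776 TPM with hairpin 1, 4.32 and 5.38 TPM with hairpin 2, against 3.95 and 3.60 TPM with shNT, a fall with hairpin 1 (-1.53, adjusted p = 0.0006) of a gene with low levels. In the thioredoxin and peroxiredoxin list, beside the same shares of all genes, 5 of 10 rose and 1 fell with hairpin 1 (median 0.21). With hairpin 2, 2 rose and 0 fell (limma, 0 lower at an unadjusted p below 0.05, median 0.24). After median-ratio scaling, the number that rose with hairpin 1 dropped from 5 to 1. It also dropped when any 1 of the 4 knockdown libraries was left out. Txnip, which binds and inhibits thioredoxin rather than supplying it, had 33.7 and 31.1 TPM with hairpin 1, 28.1 and 29.6 TPM with hairpin 2, against 16.6 and 18.3 TPM with shNT. It rose with hairpin 1 (0.85, adjusted p = 0.0006) and with hairpin 2 (0.69, adjusted p = 0.0125).

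Haem and iron genes rose in 3 of 8 cases and fell in 1 with hairpin 1 (median 0.19). With hairpin 2, 1 rose and 0 fell (0 lower at an unadjusted p below 0.05, median 0.16). Over all tested genes, 32.1% were higher and 18.1% lower with hairpin 1, and 9.63% were called with hairpin 2, 6.62% upward. Fech, the ferrochelatase that makes haem, rose with hairpin 1 (0.62, adjusted p = 0.0006), and the constitutive haem oxygenase Hmox2 fell with it (-0.52, adjusted p = 0.0031), opposite to Hmox1. With the offset of its chromosome removed, Hmox2 differed by -0.20 (adjusted p = 0.0716). Ftl1, the ferritin light chain, rose with hairpin 1 (0.50, adjusted p = 0.0056), but it has near-identical pseudogene copies, so its value is uncertain. The transferrin receptor Tfrc had 118 and 119 TPM with hairpin 1, 176 and 180 TPM with hairpin 2, against 116 and 123 TPM with shNT, raised with hairpin 2 (0.57, adjusted p = 0.0086, and 0.58 above hairpin 1, adjusted p = 0.0008).

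Superoxide and peroxide removal split as well: 1 of 4 rose and 2 fell with hairpin 1, and 1 rose and 1 fell with hairpin 2. For comparison, 32.1% of all tested genes were higher and 18.1% lower with hairpin 1, and 9.63% were called with hairpin 2, 6.62% upward. Sod3, the secreted superoxide dismutase, had 0.563 and 0.509 TPM with hairpin 1, 8.54 and 10.5 TPM with hairpin 2, against 4.41 and 4.06 TPM with shNT. The hairpins thus lay on opposite sides of shNT (-1.77, adjusted p = 0.0003, with hairpin 1 and 1.00, adjusted p = 0.0154, with hairpin 2). The mitochondrial Sod2 rose with hairpin 1 (0.57, adjusted p = 0.0008), and catalase, Cat, fell with hairpin 1 (-0.32, adjusted p = 0.0101) and hairpin 2 (-0.30, adjusted p = 0.0466). Relative to the median of its own chromosome, Cat differed by -0.042 with hairpin 1 (adjusted p = 0.641) and by -0.31 with hairpin 2 (adjusted p = 0.0650). Without small-RNA entries its hairpin 2 difference was -0.44 (limma, adjusted p = 0.0545), and without shNT replicate 1 it was -0.25.

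Among 11 partners and controllers of NRF2, 3 rose and 2 fell with hairpin 1 (median 0.08). With hairpin 2, 1 rose and 0 fell (0 lower at an unadjusted p below 0.05, median 0.08). The shares of all tested genes were 32.1% higher and 18.1% lower with hairpin 1. They were 9.63% called, 6.62% upward, with hairpin 2. The small MAF gene Mafk, a partner of NRF2 on DNA, had 18.6 and 18.3 TPM with hairpin 1, 24.0 and 23.3 TPM with hairpin 2, against 15.2 and 17.6 TPM with shNT, and it passed the threshold with hairpin 2 (0.50, adjusted p = 0.0252; hairpin 1 0.16, adjusted p = 0.121). Slc7a11 is also a target of ATF4, the amino acid response factor. Of 11 ATF4 genes, beside the same shares of all genes, 2 rose and 1 fell with hairpin 1 (median 0.08). With hairpin 2, 0 rose or fell (limma, 1 higher at an unadjusted p below 0.05, median 0.05). Asns, the asparagine synthetase, rose with hairpin 1 (0.31, adjusted p = 0.0027; 0.14, adjusted p = 0.270, without small-RNA entries, and 0.12, adjusted p = 0.107, relative to its chromosome), whereas Phgdh, the first enzyme of serine synthesis, fell (-0.38, adjusted p = 0.0048).

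The 5 tested genes whose pattern over the 6 libraries lay nearest to Nqo1 (Euclidean distance of centred log2(TPM + 1)) were Cmpk1 (0.089), 5033406O09Rik (0.098), Rps6ka3 (0.111), Abhd6 (0.117) and Rasa4 (0.119). The other NRF2 genes were left out of this ranking. Cmpk1, a pyrimidine nucleotide kinase, had 85.6 and 85.2 TPM with hairpin 1, 47.5 and 48.3 TPM with hairpin 2, against 42.4 and 48.4 TPM with shNT, levels close to those of Nqo1 in every library.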

How the data were processed

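The authors deposited gene-level TPM for all 6 libraries, 2 per group; the tools named in the submitters' processing notes are Salmon (no version), DESeq2 (role not given) and R 3.5, on mm10. Extraction used Qiagen RNeasy and Novogene built the libraries, per the labels' protocols. Groups and replicates came from the sample titles. TPM holds no counts, so depth is unknown and no count test was used. Values were analysed as log2(TPM + 1) with limma 3.58.1 in R 4.3.3: 3 group means over all 6 libraries, a variance prior following mean expression, and Benjamini-Hochberg adjustment over 11549 genes at a threshold of 0.05, two-sided. The code was tested on simulated data. The members and lists were chosen with earlier results of these data known. All members are named. From each list, up to 4 genes with the smallest p in the knockdown comparison could be named. The ones printed were chosen among these after their values were seen. Abcc1 and Osgin1 were named outside this rule, also after their values were seen. Promoters came from RefSeq. Alternatives changed the pseudocount (0.1 and 0.5), filter, scaling, variance prior, replicate block, libraries included and chromosome offsets. Setting each gene against the median of its own chromosome was added after seeing the data.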

Additional observations from a re-analysis of the deposited data

Results flagged for a closer look

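The libraries of the 2 hairpins differed in a direct test (limma, hairpin 2 minus hairpin 1, log2, adjusted p below 0.05) for 4 NRF2 members: Nqo1 (-0.77), Gclc (-0.58), Slc7a11 (-0.67) and Gclm (-0.21), beside 40.1% of all tested genes.

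Of all tested genes, 20.2% were lower and 19.9% higher with hairpin 2 than with hairpin 1. The other redox genes listed here were named by a rule that took the smallest p in the knockdown comparison of these data. Among them, hairpin 2 was lower than hairpin 1 for the detoxification genes Aldh3a1 (-1.49), Ephx1 (-1.05) and Esd (-0.45). It was also lower for the NADPH genes Pgls (-0.67), Taldo1 (-0.44), Idh2 (-0.27) and Idh1 (-0.26), for the glutathione genes Chac2 (-0.57) and Gpx4 (-0.25), for Fech (-0.51) and Ftl1 (-0.33), and for Sod2 (-0.39), Asns (-0.30) and Nfe2l1 (-0.16). Hairpin 2 was higher for Sod3 (2.77), Gpx8 (1.81), Tfrc (0.58), Hmox2 (0.43), Phgdh (0.41), Gsk3b (0.41) and Mafk (0.34). With the offset of each chromosome removed, the calls of Hmox2 (0.15, adjusted p = 0.160) and Gsk3b (0.12, adjusted p = 0.186) were lost, as were those of Gclm and Nfe2l1. The calls of Gclm, Esd, Ftl1, Gpx4, Idh1, Idh2, Nfe2l1 and Mafk were lost when any knockdown library was left out. Those of Chac2, Taldo1, Hmox2 and Phgdh were lost without some of these libraries. Without small-RNA entries, Asns (-0.26, limma, adjusted p = 0.0595) was not called, nor were Gclm, Gpx4, Idh1, Idh2 and Nfe2l1. Hairpin and parental clone cannot be told apart in these libraries.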

How the results depend on the processing

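Each of 40 member differences was recomputed under 18 alternatives, 720 values: 596 kept direction and side of the threshold, 42 lost the call, 33 gained it and 49 changed sign. For knockdown against shNT, members higher were 3 without small-RNA entries and 0 with the compared groups only. Members lower were 2 after median-ratio scaling, quantile normalization or removal of small-RNA entries, and 0 to 2 when 1 library was left out. Genes called were 2687 without the filter, 2916 without small-RNA entries, 1 with the compared groups only, and 2742 to 4880 with 1 library left out. For hairpin 1, members lower were 2 (median-ratio), 1 (quantile), 1 (small-RNA) and 0 to 2 (1 library out), with 3704 to 6161 genes called. For hairpin 2, members higher were 1 without the filter, 1 without small-RNA entries, 4 with chromosome offsets removed, 0 with the compared groups only and 0 to 2 with 1 library out, and members lower were 0 to 1. Genes called with hairpin 2 were 368 (no filter), 519 (small-RNA), 729 (quantile), 98 (compared groups only) and 6 to 2647 (1 library out; 6 without hairpin 2 replicate 1, 11 without replicate 2). Between hairpins, members higher were 2 with chromosome offsets removed, members lower 3 to 5, and genes called 2380 to 5681 with 1 library out.

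Sign changes after median-ratio scaling, quantile normalization and removal of small-RNA entries were, for knockdown, Keap1 (-0.017, -0.017, -0.079), Gclm (-0.037, -0.051, -0.099) and Txnrd1 (-0.038, -0.058, -0.10). With hairpin 1 they were Txnrd1 (-0.086, -0.11, -0.17), and under the last 2 Keap1 (-0.0049, -0.087), with Gclm -0.018 under the last. With hairpin 2 they were Keap1 (-0.035, -0.029, -0.070), Nqo1 (-0.031, -0.021, -0.067) and Gclc (-0.024, -0.019, -0.060), and under the last 2 Txnrd1 (-0.0013, -0.027). Between hairpins Srxn1 was 0.0041 (quantile) and 0.021 (small-RNA), and Keap1 0.016 (small-RNA). Removing each chromosome's offset, with the overall shift kept, gave knockdown values of 0.11 for Nfe2l2, -0.0076 for Txnrd1 and 0.048 for Srxn1. For the same genes it gave 0.29, -0.095 and 0.20 with hairpin 1, and 0.022 for Slc7a11 with hairpin 2. Relative to the median of its own chromosome, a setting chosen after seeing the data, knockdown gave 3006 genes called, 0.024 for Nfe2l2, -0.038 for Gclm and -0.098 for Txnrd1. Hairpin 1 then gave 1 member lower, 0.20 for Nfe2l2, 0.11 for Srxn1 and -0.19 for Txnrd1, hairpin 2 gave 1 member higher, 517 genes called, -0.027 for Nqo1 and -0.0071 for Txnrd1, and 2 members were higher between hairpins. Leaving out 1 library moved hairpin 1 Txnrd1 between -0.025 and 0.031, hairpin 2 Slc7a11 between -0.021 and 0.0082, and hairpin 2 minus hairpin 1 Srxn1 between -0.084 and 0.042. The cause was not tested.

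A replicate block gave 1 member higher and 276 genes called with hairpin 2 and moved G6pdx to adjusted p = 0.0510 and, with hairpin 1, Gclm to 0.0758. Deviations of same-numbered libraries correlated at 0.021 (hairpin 1 and shNT), 0.015 (hairpin 2 and shNT) and -0.044 (hairpin 2 and hairpin 1). Little deviation was thus shared by replicate number over all tested genes. This cannot exclude a shared batch, as the labels do not say what the numbers mark.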
